A study of Mus musculus with 18 samples.

Results

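Itm2b encodes the integral membrane protein 2B, also called BRI2. In its mRNA, 120 distinct cytosines were listed as 5-methylcytosine (m5C) sites over 9 bisulfite libraries. The exons of protein-coding mRNAs held 17998 distinct sites in all. The members are all listed sites that lie on the strand of the gene, within an exon of its RefSeq transcript. The gene was chosen by its measured number of sites, which was among the highest in OGD/R 3 h in an earlier analysis of these data, so its count and the change of that count are given as a description, with no test.

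The RNA is labelled as that of neurons cultured from the cerebral cortex of C57BL/6 mouse fetuses on day 18 of gestation. Cells were left untreated (control), or were kept without oxygen and glucose for 1.5 h (OGD/R 1.5 h) or for 3 h (OGD/R 3 h) and then returned to normal medium for 24 h. The labels give the hypoxic gas as 94% N2, 21% O2 and 5% CO2, which sum to more than 100%. Each group has 3 bisulfite libraries, and the 9 mock libraries, whose RNA was not converted, were not analysed here. Bisulfite turns unmethylated cytosine into uracil and leaves m5C as cytosine. A library's list holds the cytosines that the authors called at a level of at least 0.1 with a coverage of at least 10, so a cytosine that is not listed may be unmethylated or too thinly covered. A listed cytosine may be m5C or a cytosine that bisulfite failed to convert, and the conversion was not examined. Below, a site that an mRNA carried is a listed cytosine. Read totals were not used, so the depth of the libraries is unknown, and the coverage of single sites was held for only some sites of control and OGD/R 3 h. The 3 libraries of a group, which the study calls replicates of a sequencing pool, differed in coverage by less than the sampling noise in control and OGD/R 3 h (no coverage was held for OGD/R 1.5 h). They were counted as 1 sample in each group, and every SD below describes the spread between libraries only.

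The libraries held 3792 to 4137 mRNA sites in control, 3501 to 3738 in OGD/R 1.5 h and 4703 to 5229 in OGD/R 3 h. Of 21000 annotated genes, 1807 carried a site in at least 1 library of control, 1741 of OGD/R 1.5 h and 1441 of OGD/R 3 h. The label of neurons was set against marker genes. These were chosen with earlier results of these data known, so this is not an independent check. Of 15 neuron markers, among them the defining genes Tubb3, Map2 and Rbfox3, 0 carried a site in any library. Of 22 markers of intestinal epithelium, 22 carried sites, with 128 to 139 sites in all in the control libraries, 84 to 92 in OGD/R 1.5 h and 265 to 284 in OGD/R 3 h. Of 8 markers of erythroid cells, 2 carried sites, and of 9 markers of neutrophils and bone marrow, 3 did. These 5 genes were listed at 0 in control and OGD/R 1.5 h, while each OGD/R 3 h library held 31 erythroid and 21 neutrophil sites. Of 12 markers of astrocytes and glia, 1 carried 0 or 1 site in each library, and of 9 markers of smooth muscle and fibroblasts, 5 carried 7 to 15 sites in all in a library. Sites are not expression, and the part of the cell source in the results on Itm2b was not tested. In such bulk RNA, a change in the cells present and a change in the RNA of each cell cannot be told apart.

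BRI2 is a type II transmembrane protein that is made widely, and in neurons among other cells. Furin and related convertases cut a short peptide from its C-terminus, ADAM10 releases the extracellular part with its BRICHOS domain, which acts as a chaperone, and SPPL2 proteases cut within the membrane. BRI2 binds the amyloid precursor protein (APP) and lowers its processing to amyloid beta, and mutations that lengthen BRI2 cause the familial British and Danish dementias. In mRNA, m5C is written mainly by NSUN2 and NSUN6 and can be bound by ALYREF, an mRNA export factor, and by YBX1, which stabilises mRNA.

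The gene (GeneID 16432) lies on the minus strand at chr14:73362226-73385289 of mm10. Its single curated RefSeq transcript has 6 exons and 1796 nt, of which 163 nt are 5′ UTR, 801 nt are coding sequence with the stop codon, for 266 amino acids, and 832 nt are 3′ UTR. It holds 413 cytosines, 70 in the 5′ UTR, 200 in the coding sequence and 143 in the 3′ UTR. All sites were exonic and on the sense strand, and 0 of them lay in an intron, on the antisense strand or in another gene. The spliced sequence aligned to the genome in 6 blocks, all within the gene, and 0 times elsewhere at an E-value of up to 1e-10, so no second copy was found.

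The sequences below show stretches of exons 4, 2 and 5 that held the most sites. The sites were counted in control for exon 2 and in OGD/R 3 h for the others, and in exon 5 other stretches tied. Each is a window of 30 nt from the mm10 reference, written 5′ to 3′ on the mRNA strand, with capitals for the cytosines listed in at least 1 library of the group. In exon 4 (chr14:73365785-73365814, minus strand), 13 of 13 cytosines were listed in OGD/R 3 h, and none in the other groups. Only replicate 1 listed all 13, while replicates 2 and 3 held 6 and 12 sites in the whole exon.
exon 4, control: cctctgaacacttccatcgttatgccgccc
exon 4, OGD/R 1.5 h: cctctgaacacttccatcgttatgccgccc
exon 4, OGD/R 3 h: CCtCtgaaCaCttCCatCgttatgCCgCCC

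Exon 2 is shown because it held the most sites in control. In the window chr14:73368339-73368368 (minus strand), 6 of 9 cytosines were listed in control, 3 in OGD/R 1.5 h and 7 in OGD/R 3 h, at positions that were shared only in part.
exon 2, control: CggaCtggCcttCatgCttgCtggcgtcat
exon 2, OGD/R 1.5 h: cggaCtggcCttcatgcttgctggCgtcat
exon 2, OGD/R 3 h: CggactggCCttCatgCttgctggCgtCat

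Exon 5 is shown because the number of its sites was higher in both OGD/R groups. In the window chr14:73364556-73364585 (minus strand), 3 of 10 cytosines were listed in control, 4 in OGD/R 1.5 h and 6 in OGD/R 3 h.
exon 5, control: cgacaaggagacctacaaaCtgcagCgCcg
exon 5, OGD/R 1.5 h: cgacaaggagacCtacaaactgcagCgCCg
exon 5, OGD/R 3 h: CgacaaggagacctaCaaaCtgcagCgCCg

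The first comparison asks how many sites were listed in the Itm2b mRNA in control and after OGD/R. The control libraries held 19, 18 and 18 sites (replicates 1, 2 and 3), the OGD/R 1.5 h libraries 24, 16 and 18, and the OGD/R 3 h libraries 58, 36 and 49. All libraries of OGD/R 3 h had more sites than any of the other 6, while control and OGD/R 1.5 h overlapped. The means were 18.3 ± 0.577 (SD, n = 3 libraries) in control, 19.3 ± 4.16 in OGD/R 1.5 h and 47.7 ± 11.1 in OGD/R 3 h. The log2 ratio of the means was 1.38 for OGD/R 3 h against control, 1.30 against OGD/R 1.5 h and 0.08 for OGD/R 1.5 h against control, which is within the spread between libraries. An exact permutation test of 3 against 3 libraries could not go below p = 0.1, and with the libraries of a group counted as 1 sample no test was made.

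Such a gap between the groups was common. Control and OGD/R 3 h together had sites in 2258 genes, of which 18.5% had more sites in all OGD/R 3 h libraries than in all control libraries, as Itm2b did, and 18.8% had fewer. Against OGD/R 1.5 h, 19.8% of 2180 genes had more sites in all OGD/R 3 h libraries. In OGD/R 1.5 h against control, where Itm2b overlapped, 8.57% of 2322 genes were higher in all libraries and 15.2% were lower.

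The libraries of OGD/R 3 h also listed more sites in all, so the share of Itm2b in the mRNA sites of each library was taken. It was 0.489%, 0.435% and 0.475% in control, then 0.686%, 0.451% and 0.482% in OGD/R 1.5 h, and 1.11%, 0.765% and 1.04% in OGD/R 3 h. The share in OGD/R 3 h was above that of all other libraries, and its log2 ratio to control was 1.06, smaller than that of the number of sites. Among genes, Itm2b ranked 12, 13 and 12 by its number of sites in the control libraries, 3, 16 and 16 in OGD/R 1.5 h and 3, 8 and 3 in OGD/R 3 h. OGD/R 1.5 h replicate 1 stood apart from its group in the number, the share and the rank.

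**Figure D1:**
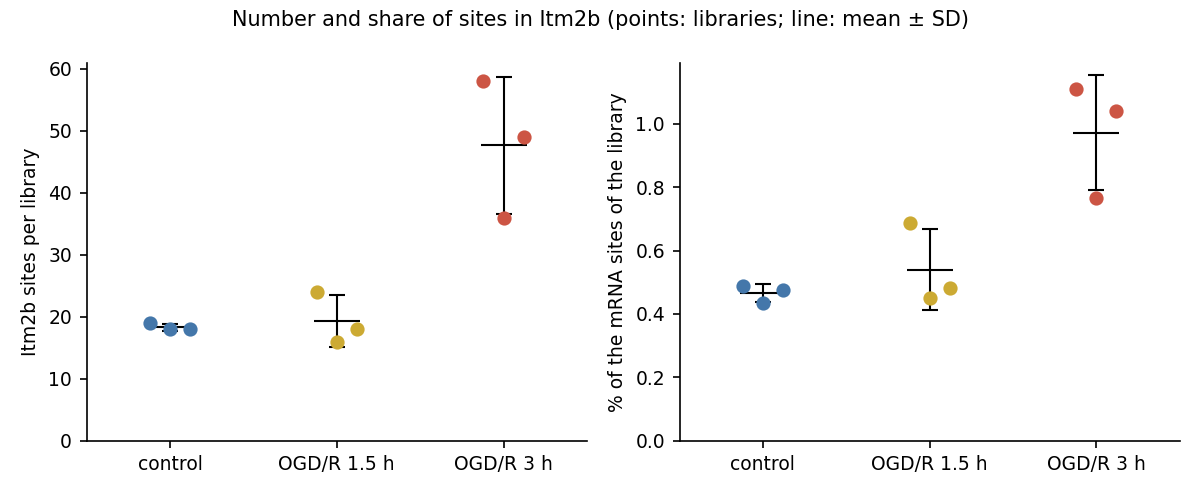
Number of Itm2b sites per library (left) and the same as a percent of the mRNA sites of the library (right), by group, with 1 point per library and the mean ± SD of 3 libraries. The OGD/R 3 h libraries lie at 36 to 58 sites, above the control libraries at 18 to 19 and the OGD/R 1.5 h libraries at 16 to 24.

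Along the mRNA, the sites stopped before the 3′ UTR. No library listed any of its 143 cytosines, and the last site lay 23 nt before the stop codon. Start and stop codon regions reach 100 nt upstream and downstream of their codon. The coding sequence between them held 15 sites in each control library, 15, 9 and 13 in OGD/R 1.5 h, and 49, 27 and 41 in OGD/R 3 h. The stop codon region held 2 to 4 sites in every library, all on its coding side. The 5′ UTR outside the start codon region held 1 site in each OGD/R 3 h library and 0 in the others.

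The start codon region held 2, 1 and 1 sites in control, then 7, 5 and 3 in OGD/R 1.5 h and 4, 5 and 5 in OGD/R 3 h. As a share of the sites of the library these were 7.21% ± 2.87 in control, 25.7% ± 7.89 in OGD/R 1.5 h and 10.3% ± 3.50 in OGD/R 3 h (SD, n = 3 libraries). In number, both OGD/R groups lay above control and overlapped with each other, and in share OGD/R 1.5 h lay above both other groups. How many other mRNAs show such gaps was not counted. With 50 nt on either side, the shares were 0% in control, 12.3% in OGD/R 1.5 h and 7.47% in OGD/R 3 h. The share of the coding sequence between the regions was 78.9%, 83.3% and 83.3% in control, then 62.5%, 56.3% and 72.2% in OGD/R 1.5 h and 84.5%, 75% and 83.7% in OGD/R 3 h, so that OGD/R 1.5 h lay below both other groups there.

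**Figure D2:**
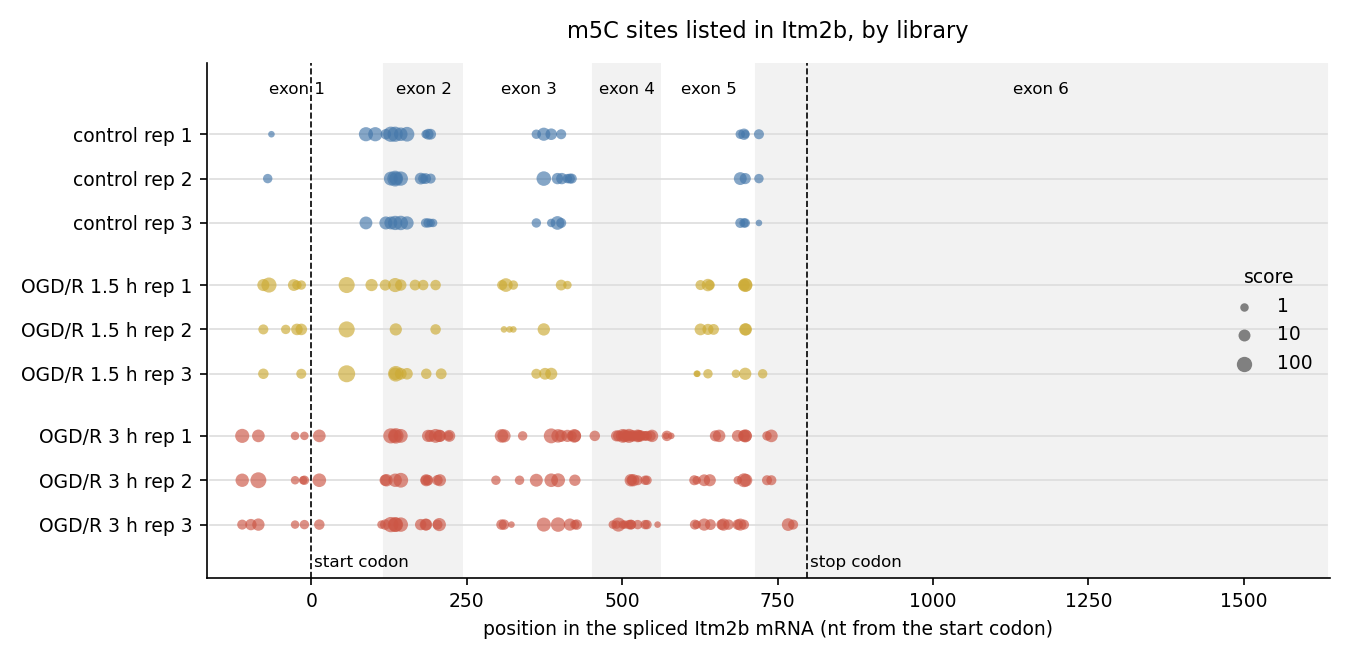
Sites along the spliced Itm2b mRNA in each of the 9 libraries, in nt from the start codon, with shaded bands for the exons, dashed lines for the start and stop codons, and point areas that grow with the logarithm of the score. Exon 4 holds 21, 6 and 12 points in OGD/R 3 h replicates 1, 2 and 3 and is empty in the other 6 libraries. No point lies after the stop codon.

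Exon 4 was the exon in which the groups differed most. This exon of 111 nt (chr14:73365752-73365862) is wholly coding and holds 31 cytosines. It carried 0 sites in all 6 libraries of control and OGD/R 1.5 h, and 21, 6 and 12 sites in the OGD/R 3 h libraries, a mean of 13 ± 7.55. Together these libraries listed 23 of its cytosines, or 74.2%, over codons 153 to 186. The difference between the means of OGD/R 3 h and control was 29.3 sites per library, and exon 4 accounted for 44.3% of it, or for 37.2% to 47.1% with 1 OGD/R 3 h library left out. The mean in exon 4 was 9 sites without replicate 1 and 16.5 without replicate 2. Without exon 4, the log2 ratio of OGD/R 3 h to control was 0.92.

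The OGD/R 3 h libraries agreed on part of exon 4 only. Of its 23 sites, 5 were listed in all 3 libraries, 6 in 2 and 12 in 1. The scores, on a scale that grows with both the coverage and the level of a site up to a cap of 1000, were low, with medians of 6, 3 and 2 in replicates 1, 2 and 3 and a highest score of 41. The 5 sites in all 3 libraries lay at 73365801, 73365800, 73365790, 73365778 and 73365775 (named after their values were seen), with scores between 1 and 17.

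Exon 4 was not alone in this pattern. Of the 138 exons with at least 10 OGD/R 3 h sites, in genes with more than 1 exon, 9 (6.52%) had no site in the other groups. This rule was set after exon 4 had been seen and uses the same values, so the share is a description and nothing was read from it about exon 4. The 9 exons include those of Hbb-bs (25 sites), which encodes an adult beta globin chain, Rpl8 (17), which encodes a ribosomal protein, and Vdac1 (17), which encodes a mitochondrial outer membrane channel.

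Exon 2 (129 nt, chr14:73368299-73368427, 28 cytosines) held the most sites in control. Its libraries held 8, 8 and 9 sites in control, then 6, 2 and 6 in OGD/R 1.5 h, and 11, 9 and 10 in OGD/R 3 h. OGD/R 1.5 h lay below control in all libraries, while OGD/R 3 h overlapped with control at 9 sites. Over the 3 groups, 82.1% of its cytosines were listed, the highest share of any exon.

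Exon 5 (151 nt, chr14:73364542-73364692, 47 cytosines) held 3, 2 and 3 sites in control, then 6, 5 and 5 in OGD/R 1.5 h and 9, 7 and 10 in OGD/R 3 h. Its 3 groups did not overlap, with the fewest sites in control and the most in OGD/R 3 h. The share of all exons whose groups differ in this way, or as those of exon 2 did, was not computed, so these gaps are descriptions. Exon 3 (207 nt, chr14:73366321-73366527, 50 cytosines) held 4, 6 and 4 sites in control, then 5, 4 and 3 in OGD/R 1.5 h and 10, 6 and 8 in OGD/R 3 h, so that OGD/R 3 h replicate 2 met the highest control library.

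The outer exons hold the untranslated regions. Exon 1 (280 nt, chr14:73385010-73385289, 100 cytosines, with the 5′ UTR and the start codon) held 3, 1 and 1 sites in control, then 7, 5 and 3 in OGD/R 1.5 h and 5, 6 and 7 in OGD/R 3 h. It had the most cytosines before the stop codon, yet only 8% of them were listed in OGD/R 3 h. Exon 6 (918 nt, chr14:73362226-73363143) has 157 cytosines, of which 14 are coding, and held 1 site in each control library, 0, 0 and 1 in OGD/R 1.5 h and 2 in each OGD/R 3 h library.

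**Figure D3:**
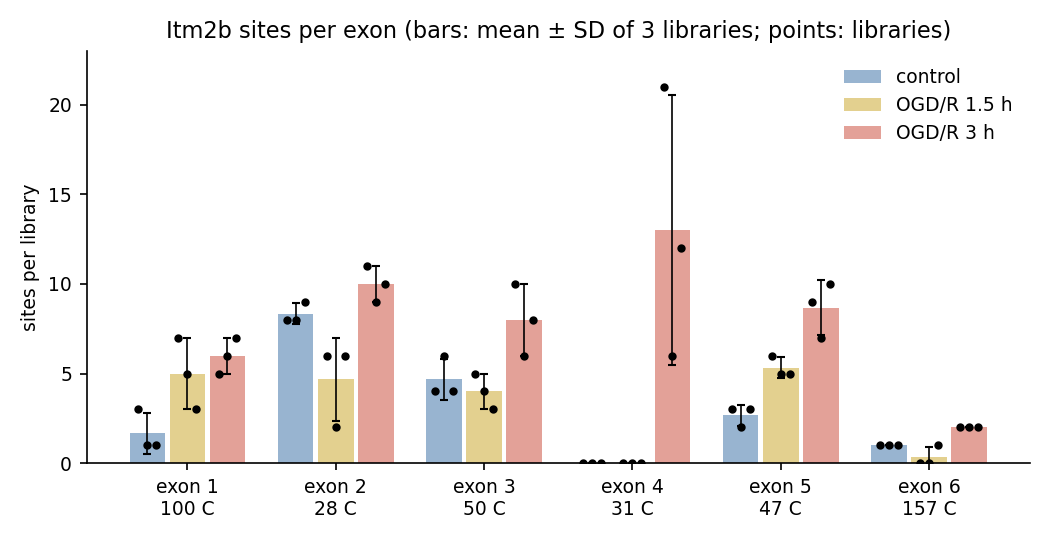
Sites per library in each Itm2b exon, with the number of cytosines (C) of the exon under its name, bars for the mean ± SD of 3 libraries and points for the libraries. Exon 4 is at 0 in control and OGD/R 1.5 h and at 6 to 21 in OGD/R 3 h, and exon 5 steps up over the 3 groups.

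Few positions were shared between the groups. The union of the libraries was 29 sites for control, 40 for OGD/R 1.5 h and 88 for OGD/R 3 h. Of the 120 sites, 63 were listed only in OGD/R 3 h, 21 only in OGD/R 1.5 h and 9 only in control, while 10 were listed in all 3 groups. These are 52.5%, 17.5%, 7.5% and 8.33% of the Itm2b sites, against 33.3%, 24.1%, 23.4% and 3.62% of all mRNA sites, and the first share is tied to the choice of the gene by its sites in OGD/R 3 h. Control and OGD/R 3 h shared 18 sites, 62.1% of the control sites and 20.5% of the OGD/R 3 h sites. Control and OGD/R 1.5 h shared 12 sites, 41.4% of the first and 30% of the second, and the OGD/R groups shared 17, 42.5% of OGD/R 1.5 h and 19.3% of OGD/R 3 h. Most of the 63 sites listed only in OGD/R 3 h came from single libraries, with 37 in 1 library, 13 in 2 and 13 in all 3.

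Recurrence within a group was limited too. In control, 11 sites were listed in 1 library, 10 in 2 and 8 in all 3. In OGD/R 1.5 h these numbers were 27, 8 and 5, and in OGD/R 3 h they were 49, 23 and 16. The share listed in all 3 libraries was 27.6%, 12.5% and 18.2%, against 26.6%, 18.0% and 30.8% over all mRNA sites of the same groups. Pairs of control libraries shared 9 to 16 sites, or 32.1% to 76.2% of the sites of the pair, pairs of OGD/R 1.5 h libraries 20% to 33.3%, and pairs of OGD/R 3 h libraries 32.1% to 34.9%. Pairs from different groups shared 1.96% to 20%. Thus the Itm2b lists of OGD/R 3 h libraries were longer but not more alike than those of control.

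**Figure D4:**
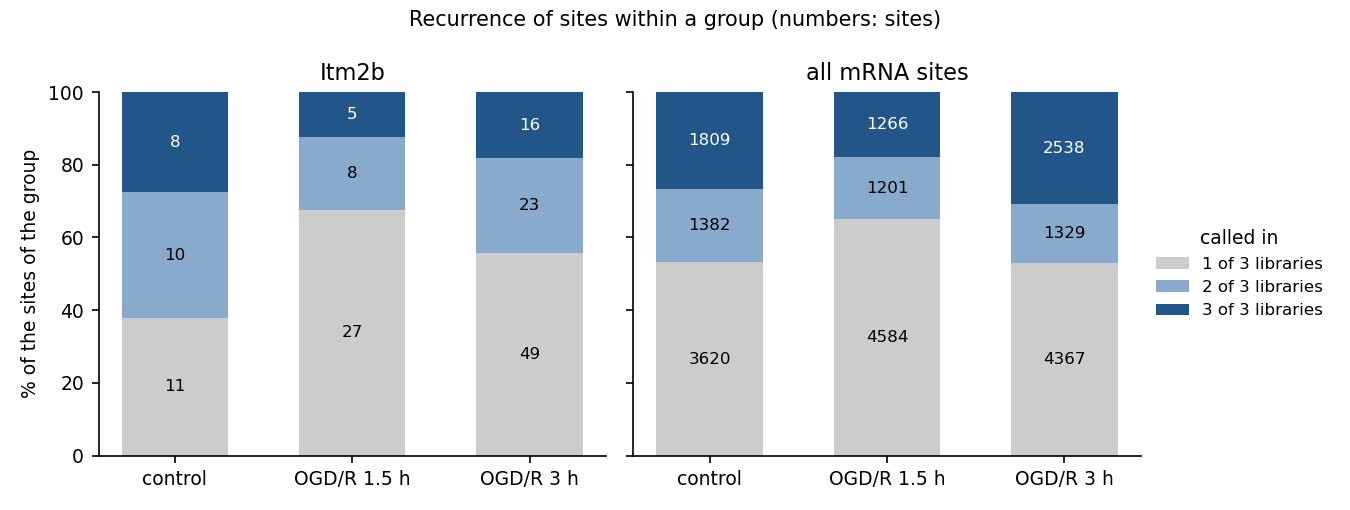
Percent of the sites of each group that were called in 1, 2 or 3 of its libraries, for Itm2b (left) and for all mRNA sites (right), with the number of sites printed in each part. In OGD/R 3 h, 16 of 88 Itm2b sites were called in all 3 libraries, 18.2% against 30.8% over all mRNA sites.

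The single sites that recurred most lay in exons 2 and 5. Site 73368409 (codon 46, exon 2) was listed in 8 of 9 libraries, with scores of 92, 148 and 48 in control, 43 and 14 in OGD/R 1.5 h replicates 1 and 3, and 22, 26 and 60 in OGD/R 3 h. Site 73368400 (codon 49, exon 2) was listed in the same libraries, with scores of 28, 49 and 53, of 7 and 9, and of 35, 67 and 53. Neither was listed in OGD/R 1.5 h replicate 2. Between control and OGD/R 3 h, the mean of log2(score + 1) differed by -1.39 at the first and by 0.25 at the second, and the scores of the groups overlapped at both. Among the 250 mRNA sites listed in all 6 libraries of these groups, 26.4% did not overlap.

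In exon 5, site 73364558 (codon 233) was listed in 7 libraries. Its scores were 1, 6 and 2 in control, then 38, 12 and 12 in OGD/R 1.5 h, and 22 in OGD/R 3 h replicate 1 alone. The scores of OGD/R 1.5 h lay above those of control, with a difference of 2.43 on the same scale. It was the only Itm2b site listed in all 6 libraries of control and OGD/R 1.5 h, and 22.8% of the 294 such mRNA sites did not overlap. Site 73364560, in the same codon, was listed in control replicates 1 and 3 (7 and 2), in OGD/R 1.5 h replicate 1 (8) and in all OGD/R 3 h libraries (9, 36 and 3). In each OGD/R group, both sites were listed together in replicate 1 only.

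The site with the highest score was a different one in each group, and all 3 are shown with 10 nt on either side. In control it was 73368409 with 148. In OGD/R 1.5 h it was 73385069 in codon 20 of exon 1, with scores of 173, 178 and 371, the highest of the gene, and it was not listed in any library of the other groups. In OGD/R 3 h it was 73385211 in the 5′ UTR, 85 nt before the start codon, with scores of 16, 155 and 13, which was likewise not listed elsewhere. In the windows (minus strand) chr14:73368399-73368419, chr14:73385059-73385079 and chr14:73385201-73385221, capitals mark the cytosines listed in the group named, and the site itself is the eleventh base.
highest score, control: tgaCgtggttCCggttggaCa
highest score, OGD/R 1.5 h: gaaggacgagCccaagagcag
highest score, OGD/R 3 h: tgagctcggcCgacaaggctg

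In the control window all 4 cytosines were listed, whereas the OGD/R 1.5 h site was the only one listed of 5 and the OGD/R 3 h site the only one of 6. High scores thus occurred both within groups of neighbouring sites and at single cytosines. Over all Itm2b sites of a library, the median score was 5, 6.5 and 2.5 in control, then 6.5, 7 and 4.5 in OGD/R 1.5 h and 10, 7 and 4 in OGD/R 3 h, and the groups overlapped. Over all mRNA sites, the mean of the library medians was 9.67, 7 and 11.7 in these groups.

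Neighbouring sites were common. A run was taken as sites that each lie within 10 nt of the next in the mRNA of the same library. The share of Itm2b sites in runs was 57.9%, 83.3% and 83.3% in control, then 66.7%, 56.3% and 44.4% in OGD/R 1.5 h and 86.2%, 72.2% and 79.6% in OGD/R 3 h. OGD/R 3 h lay above OGD/R 1.5 h in all libraries and overlapped with control. Other mRNAs with such a gap were not counted, so it is a description. The number of runs was 3, 4 and 4 in control, then 7, 4 and 3 in OGD/R 1.5 h and 10, 11 and 12 in OGD/R 3 h. With only the sites that had no neighbour within 10 nt counted, the log2 ratio of OGD/R 3 h to OGD/R 1.5 h was 0.16, while that to control was 1.00.

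The longest run of each OGD/R 3 h library lay in exon 4. It had 20 sites over 58 nt in replicate 1 (73365767 to 73365824), 4 sites over 12 nt in replicate 2 (73365790 to 73365801) and 9 sites over 41 nt in replicate 3 (73365790 to 73365830). In control the longest run had 5 sites in each library, in exon 2 in replicates 1 and 3 (73368390 to 73368424) and in exon 3 in replicate 2 (73366354 to 73366377). The longest runs of OGD/R 1.5 h had 3, 3 and 4 sites, in exons 1, 3 and 2. In replicate 1, another run of 3 sites, in exon 5 (73364557 to 73364560), was as long as that in exon 1. The length of the longest run thus varied more within OGD/R 3 h than between the other groups.

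The sequence context of a site is CG, CHG or CHH, where H is A, C or U. The share of CHH was 36.8%, 16.7% and 44.4% in control, then 33.3%, 31.3% and 33.3% in OGD/R 1.5 h and 53.4%, 41.7% and 36.7% in OGD/R 3 h. Thus OGD/R 3 h lay above OGD/R 1.5 h in all libraries, and control overlapped with both. The share of CG was 31.6%, 38.9% and 16.7%, then 33.3%, 37.5% and 33.3%, and then 20.7%, 19.4% and 24.5%, which placed OGD/R 3 h below OGD/R 1.5 h in all libraries. Other mRNAs with such gaps in context were not counted, so both gaps are descriptions. Over all mRNA sites, the mean share of CHH was 33.3%, 38.1% and 41.6% in these groups, and that of CG was 27.4%, 21.98% and 21.1%. In exon 4, 69.6% of the sites were CHH, close to the 71.0% of all cytosines of that exon.

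Sites were set against the 270 cytosines up to the stop codon, of which the 120 sites are a part. The shares of CG were 25% among sites and 20% among the 150 cytosines with no site, and the shares of CHH were 45.8% and 56%. In codons, 29.2%, 29.2% and 41.5% of the 106 coding sites lay at the first, the second and the third position, against 28%, 26% and 46% of the 200 coding cytosines. The motif CNGGG, with the site as its first C, is linked to NSUN2. It was found at 3 of the sites (2.5%) and at 5 of the 270 cytosines (1.85%). In the union of a group it was at 2 of 29 sites in control (6.90%), 1 of 40 in OGD/R 1.5 h (2.5%) and 2 of 88 in OGD/R 3 h (2.27%). Over all mRNA sites, the mean share of a library was 3.98%, 3.48% and 3.33% in these groups, which is not a share of a union. The motif CTCCA, linked to NSUN6, was found at 0 of the 270. Motifs were searched on the mRNA strand only and do not overlap with each other. In the predicted fold of the whole mRNA, 63.3% of the sites and 62% of the cytosines with no site were paired, and among coding cytosines alone these shares were 62.3% and 64.9%. Folds of 151 nt around the same coding cytosines gave 53.8% and 63.8%.

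The other genes of the family and of the pathway were taken from lists set with earlier results known. For comparison, 1807 of 21000 annotated genes carried a site in control, 1741 in OGD/R 1.5 h and 1441 in OGD/R 3 h. Of the 3 genes of the ITM2 family and the 10 annotated BRICHOS genes, Itm2b alone carried sites. Of 7 proteases that cut BRI2, 5 carried sites. Adam10 had 7, 6 and 8 sites in control, then 10, 5 and 10 in OGD/R 1.5 h and 3, 5 and 4 in OGD/R 3 h, which lay below control. Furin had 5, 4 and 4, then 1, 0 and 6, and then 5, 7 and 2 sites, with overlap between all groups. Sppl2a, the intramembrane protease, had 0 to 2 sites in each library. Among the proteases, 1 (Pcsk5, with 1 site in each OGD/R 3 h library) was above control in all OGD/R 3 h libraries and 1 was below (18.5% and 18.8% of all genes with a site).

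Of 23 genes of APP processing, 8 carried sites, of which 4 were higher and 2 lower in all OGD/R 3 h libraries than in all control libraries, against 18.5% and 18.8% of all genes with a site. App itself, which encodes the precursor that BRI2 binds, had 15, 20 and 24 sites in control, then 18, 19 and 21 in OGD/R 1.5 h and 47, 43 and 31 in OGD/R 3 h. Like Itm2b, it overlapped between control and OGD/R 1.5 h and lay higher in OGD/R 3 h. Picalm, a clathrin adaptor, had 6, 7 and 6, then 6, 3 and 10, and then 9, 13 and 11 sites. Apoe, which encodes a lipid carrier, had 4, 5 and 3, then 2 in each, and then 2, 2 and 1 sites, so that both OGD/R groups lay below control.

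Of 20 other mRNAs of membrane proteins, 16 carried sites, and 8 were higher and 1 lower in all OGD/R 3 h libraries than in all control libraries (18.5% and 18.8% of all genes with a site). Atp1b1, which encodes a beta subunit of an ion pump, had 67 distinct sites over the 9 libraries, Epcam, an epithelial adhesion protein, 24 and Tmbim6, a protein of the endoplasmic reticulum, 22. In OGD/R 1.5 h, 2 of these 20 genes were above control in all libraries and 4 below (8.57% and 15.2% of all genes with a site). Of 10 annotated writers and readers of m5C, 2 carried sites. Ybx1 had 4, 3 and 3 sites in control, then 4, 2 and 2 in OGD/R 1.5 h and 3, 3 and 7 in OGD/R 3 h, and Alyref had 3, 2 and 2 sites in OGD/R 3 h and 0 in the other libraries. Of the 22 intestinal markers, 11 were higher and 3 lower in all OGD/R 3 h libraries than in all control libraries, where 18.5% and 18.8% of all genes with a site were. The Itm2b result has the direction of the larger number of these markers, and their part in it was not tested.

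Of 191 genes with at least 20 distinct sites, the 5 whose number of sites over the 9 libraries was most like that of Itm2b were Zmiz1, Arf6, Ptms, Klf4 and Krt20. The root mean square difference of log2(sites + 1), after each gene was centred on its mean, was 0.22 for Zmiz1 and 0.28 for Krt20. These genes had fewer sites than Itm2b. Ptms, which encodes parathymosin, had 8, 9 and 9 sites in control, then 9, 7 and 8 in OGD/R 1.5 h and 21, 11 and 16 in OGD/R 3 h, and Arf6, which encodes a small GTPase of membrane traffic, had 4, 3 and 3, then 5, 3 and 4, and then 12, 12 and 13. Krt20, a keratin, is also 1 of the intestinal markers.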

How the data were processed

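RNA-BS-Seq libraries of the 3 groups were analysed. Per the labels and the study's methods, the authors trimmed reads with Cutadapt 1.9.3, used meRanGh to align bisulfite reads (mm10) and meRanCall to call methylated cytosines; the labels also name CASAVA 1.8 and STAR. The deposited score of a site is the meRanCall score times 10, cut down to a whole number of at most 1000, with no normalization for depth. Neither the level nor the coverage can be read from it, so no interval was computed.

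Sites were placed on the exons of curated RefSeq transcripts of protein-coding genes (GRCm38, 21000 genes) with Python 3.11.15, numpy 2.4.6 and pysam 0.24.0. All 17998 mRNA sites fell on a cytosine. Sequences are RefSeq's mm10 reference, read with samtools 1.23.1. Copies were sought with blastn 2.17.0, and folds were made with RNAfold 2.7.2. The rule of no overlap was tried on simulated counts of independent libraries, unlike the libraries of a group, which were counted as 1 sample. Placement was tried on bases drawn from the annotated exons and looked up in the same exons, a check that could not fail. The libraries of a group were checked with a chi-square of coverage in the supplementary part held. No p-value was computed.

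The gene, the gene lists and the markers were chosen with earlier results of these data known. Named genes are Itm2b, up to 4 genes of a list with most distinct sites, and the 5 most like it (some genes of the lists are counted but not reported here by name); Pcsk5, Alyref and the exons of other genes were named after their values were seen. Named sites are those listed in at least 6 libraries, the highest score of each group, sites without overlap and the longest runs. Alternatives were a score of at least 10, recurrence, other run and region widths, sites without neighbours, the share of sites and each library left out. Added after seeing the data were the GENCODE M21 annotation, the removal of exon 4, exon 4 with a library left out, local folds and folds over coding cytosines.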

Additional observations from a re-analysis of the deposited data

How the results depend on the processing

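No paired analysis was possible because no test was made and the replicate numbers only number libraries. Leaving out each library in turn was run for the ratios of sites, the sites in exon 4, the shares of CHH, the start codon region and runs, and the median score, and moved none of these beyond the spread between libraries. Exon counts other than exon 4, CG, recurrence, shared sites and gene lists were not rerun in this way. With a library left out, the log2 ratio of OGD/R 3 h to control ran from 1.21 to 1.55. GENCODE M21 gave the same numbers of sites. The log2 ratio of OGD/R 3 h to control (1.38) was 1.00 with sites called in all 3 libraries, 1.00 with sites without neighbours and 0.92 without exon 4. That of OGD/R 3 h to OGD/R 1.5 h (1.30) was 0.16 with sites without neighbours and 0.84 without exon 4. That of OGD/R 1.5 h to control (0.08) turned to -0.47 with sites in at least 2 libraries and -0.68 in all 3, to -0.07 at a score of at least 10 and -0.11 without OGD/R 1.5 h replicate 1, and was 0.46 for the union and 0.84 with sites without neighbours, so its direction was not settled. At a score of at least 10, the share of CHH was 14.3% in control, 27.4% after OGD/R for 1.5 h and 32.5% after 3 h, and it was 35% in the union of OGD/R 1.5 h. With 50 nt around the start codon, the region held 0% of the control sites and 12.3% of those of OGD/R 1.5 h, and in unions 10.3% of the control sites and 6.82% of those of OGD/R 3 h. Runs within 5 nt held 34.7%, 21.3% and 56.7%, and within 20 nt they held 75.7% in OGD/R 1.5 h and 89.3% in OGD/R 3 h. Mean in place of median scores were 18.95, 23.3 and 14.9. The causes of these moves were not tested. Unknown depth limits all counts, since a site not listed may lack coverage.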
